A study of Homo sapiens with 8 samples.

Results

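MEIS1, PBX2, PBX3, PBX4 and PKNOX1 encode TALE homeodomain proteins that act with HOXA9. They were picked by name as TALE cofactors of HOXA9 and found through their Ensembl identifiers in a table of 63140 genes. All 5 were in the table and all 5 passed the filter on low counts. The sixth gene of that list is not analysed here.

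TALE homeodomains carry an extended loop between helices, through which PBX proteins bind HOX proteins. MEIS and PKNOX proteins bind PBX through another domain, and the resulting complexes hold HOX proteins on DNA. In acute myeloid leukaemia MEIS1 and PBX3 are known as partners of HOXA9 that speed up and sustain leukaemia, and PBX2 and PKNOX1 are broadly expressed members of the same families.

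The values are RNA counts from 8 ChIRP libraries, that is, RNA recovered from fixed, sonicated leukaemia cells with biotinylated probes and streptavidin beads. The RNA that the probes target is not given in the labels, nor is an input library, so a value is the amount of a transcript in the pull-down. The question set by the design was how that RNA differs when HOTSCRAMBL, a long non-coding RNA, is disrupted by Cas9 or altered by a cytosine base editor (CBE, which changes C to T without cutting both strands). Each group held 1 library labelled MOLM13 and 1 labelled OCI-AML4, both established human acute myeloid leukaemia lines.

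In the AAVS1 KO group, cells whose genotype is labelled WT had received Cas9 with guides to AAVS1, an intronic site used as the editing control, and the HOTSCRAMBL KO group had received Cas9 with guides to HOTSCRAMBL. The AAVS1 CBE and HOTSCRAMBL CBE groups had received the base editor with the corresponding guides. All 4 groups went through nucleofection and were taken on day 3 after it. No group was left unedited, and the labels mention no selected clones.

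Total counts ran from 20548300 to 37970163 per library. HOTSCRAMBL is the name of 0 genes in the table, so the target itself was not checked. The cell-line labels separated the libraries little: 119 of 24057 genes (0.495%) passed the threshold between them, and deviations from the group means correlated at 0.0203 to 0.053 between groups. That is little for 2 different cell lines, and nothing here tests which line a library came from, so values by labelled line and the line term in the model rest on the labels alone. Of 11 myeloid markers, 9 exceeded 1 CPM (a gene's count relative to the total of its library, after TMM scaling) in every library, and KIT (at most 0.63 CPM) and ANPEP (at most 1.96 CPM) did not. Summed markers of B cells stayed at or below 11.4 CPM, of T cells at 12.4 CPM, of erythroid cells at 2.83 CPM and of epithelial cells at 5.4 CPM, against 1759 to 2425 CPM for the myeloid list, and CD3E, CD2 and HBB were at 0. Mitochondrially encoded RNA took 6.77% to 7.23% of counts in AAVS1 libraries and 10.2% to 11.9% in HOTSCRAMBL libraries, and cytosolic ribosomal protein mRNA took 1.18% to 1.39% against 2.73% to 3.86%. The part of that shift in the results that follow was not tested.

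The 250 bases before the RefSeq start are shown for the 3 genes whose levels changed, which moved in different directions. Capitals mark TGACAG or its reverse complement CTGTCA, the half-site bound by MEIS and PKNOX proteins. All sequences read 5′ to 3′ on the gene's strand, from RefSeq on GRCh38.p14.
MEIS1, chr2:66434875-66435124, plus strand: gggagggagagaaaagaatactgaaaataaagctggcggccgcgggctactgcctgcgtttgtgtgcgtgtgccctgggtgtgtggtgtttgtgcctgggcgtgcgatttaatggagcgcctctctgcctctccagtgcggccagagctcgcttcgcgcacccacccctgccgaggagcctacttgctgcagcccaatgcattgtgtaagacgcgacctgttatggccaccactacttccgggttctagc
PBX2, chr6:32190203-32190452, minus strand: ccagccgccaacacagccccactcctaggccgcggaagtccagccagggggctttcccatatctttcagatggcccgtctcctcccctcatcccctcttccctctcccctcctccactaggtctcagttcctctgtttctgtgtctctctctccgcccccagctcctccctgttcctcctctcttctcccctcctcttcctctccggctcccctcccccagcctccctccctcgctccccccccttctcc
PBX3, chr9:125747933-125748182, plus strand: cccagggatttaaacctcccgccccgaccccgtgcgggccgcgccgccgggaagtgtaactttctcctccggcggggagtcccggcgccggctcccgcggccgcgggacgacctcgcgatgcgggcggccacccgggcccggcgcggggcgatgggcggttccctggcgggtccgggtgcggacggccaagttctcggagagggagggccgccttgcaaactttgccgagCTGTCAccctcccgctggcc

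PBX3 was the only member with the half-site in its window of 300 bases (250 before to 50 after the start). It lies 20 bases before the RefSeq start, and the last 18 printed bases fall in an annotated exon of PBX3. The half-site occurs, on either strand, in 15.8% of the 35116 promoters in the table. The composite letters TGATTGAC of PBX with MEIS or PKNOX (0.575% of promoters) and TGATTTAT of PBX with a posterior HOX protein (0.846%) were in none of the 5 windows, searched on both strands. CpG content differed widely among members, with 8 CpGs in the PBX2 window, 18 in MEIS1, 35 in PBX4, 43 in PBX3 and 46 in PKNOX1, against a median of 14 over all promoters. These are descriptions of letters in a window and say nothing of binding.

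Per kilobase of exon, PBX3 was the most abundant of the 5 and PBX4 the least. Over the 4 AAVS1 libraries PBX3 stood at 138 ± 5.83 CPM per kb (SD, n = 4), above 99.4% of tested genes. MEIS1 (22.8 ± 1.15 CPM per kb) and PBX2 (22.5 ± 3.02 CPM per kb) did not differ beyond their spread. PKNOX1 followed at 2.44 ± 0.635 CPM per kb, above 51.2% of tested genes, and PBX4 at 0.312 ± 0.177 CPM per kb, above 15%. The gaps from PBX3 to the next pair, from that pair to PKNOX1 and from PKNOX1 to PBX4 each exceeded the SDs. The AAVS1 controls of the 2 editors gave like levels, with log2 differences (AAVS1 KO minus AAVS1 CBE) of −0.09 for MEIS1 (95% interval −0.35 to 0.16), 0.12 for PBX2 (−0.22 to 0.46), 0.06 for PBX3 (−0.12 to 0.23) and 0.07 for PKNOX1 (−0.64 to 0.78). In that comparison edgeR called 0 of 24057 genes (0%), with 918 at an unadjusted p under 0.05, and DESeq2 called 33 and limma-voom 2. No member passed in it with any of the 3 tools, and 0 of the 5 had an unadjusted edgeR p under 0.05.

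**Figure D1:**
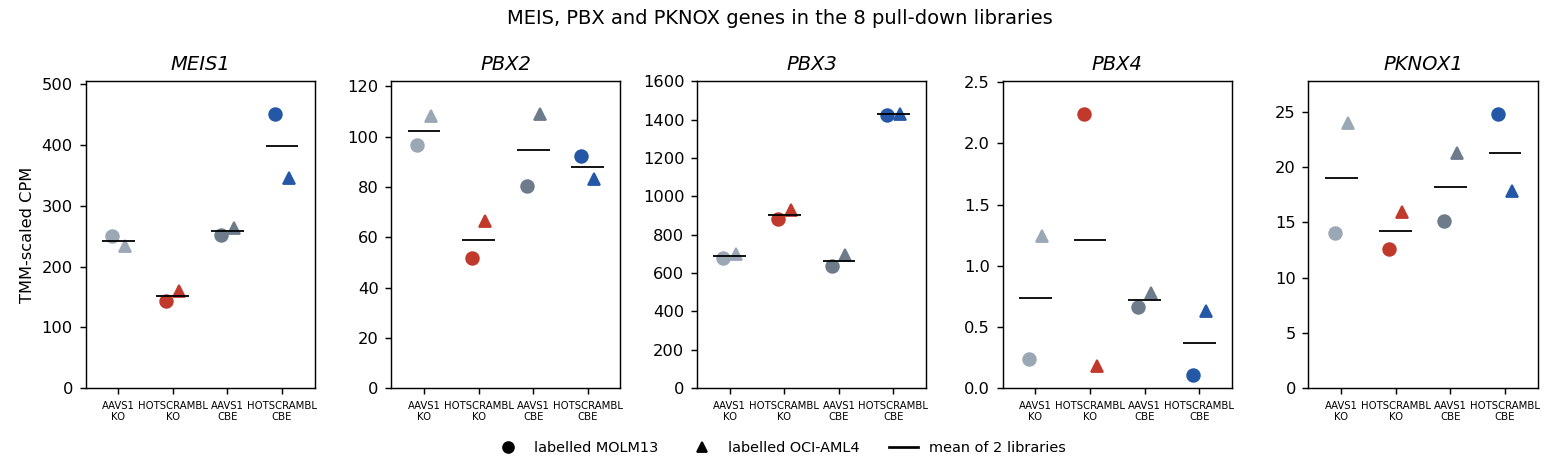
Level of each of the 5 genes in the 8 libraries, in TMM-scaled CPM on axes that start at 0 and differ between panels. Circles are libraries labelled MOLM13, triangles those labelled OCI-AML4, and lines are means of 2. MEIS1 lies lowest in HOTSCRAMBL KO (143 and 160 CPM) and highest in HOTSCRAMBL CBE (451 and 345 CPM), and PBX3 is above all AAVS1 libraries in both HOTSCRAMBL groups.

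With Cas9, MEIS1 and PBX2 fell and PBX3 rose, so the members did not move together. That is 3 of 5 members past the threshold, 1 higher and 2 lower, where 8.76% of all 24057 tested genes passed, 4.51% higher and 4.25% lower. Well-counted genes passed more often: of the 9645 genes with a mean of at least 10 CPM, 18.8% passed. In bulk samples, fewer cells of a type and less RNA per cell cannot be told apart.

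MEIS1 (ENSG00000143995, chromosome 2, 66433452 to 66573869, plus strand), the MEIS partner that binds both PBX and HOXA9, counted 250 CPM in the MOLM13 and 233 CPM in the OCI-AML4 library of AAVS1 KO. In HOTSCRAMBL KO it counted 143 and 160 CPM. Both HOTSCRAMBL KO libraries lay below both controls. With 2 libraries a group such separation is weak evidence, here and below, and its share over all tested genes was not counted. The log2 fold change was −0.67 (SE 0.135, 95% interval −0.95 to −0.39, edgeR Benjamini-Hochberg adjusted p 0.00141), a level 0.63 times the control. It was −0.80 in the pair labelled MOLM13 and −0.55 in the pair labelled OCI-AML4. The call was lost without the AAVS1 KO library labelled MOLM13 (edgeR adjusted p 0.0753) or OCI-AML4 (0.0646) and without the HOTSCRAMBL KO library labelled MOLM13 (−0.52, 0.127). Antisense genes cover 1456 exon bases of MEIS1 (13.3%). Counting ignored strand and dropped reads over several genes, so reads there are not in the MEIS1 count.

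PBX2 (ENSG00000204304, chromosome 6, 32184733 to 32190202, minus strand), a broadly expressed PBX protein, counted 96.7 and 108 CPM in AAVS1 KO (MOLM13 label first, here and in the pairs that follow). In HOTSCRAMBL KO it counted 51.6 and 66.5 CPM. The groups did not overlap, and both labels showed the drop, by −0.91 and −0.70 on the log2 scale. Its log2 fold change was −0.79 (SE 0.189, 95% interval −1.18 to −0.40, edgeR adjusted p 0.00647), or 0.578 times the control. Leaving out any 1 of the 4 libraries of the contrast ended the call: edgeR adjusted p was 0.13 and 0.107 without the AAVS1 KO libraries and 0.146 and 0.0678 without the HOTSCRAMBL KO libraries. A fit of those 4 libraries alone gave 0.0685. Another annotated gene shares 662 exon bases (15.2%) with PBX2. Reads there were counted for neither gene, so the 0 counts of that gene do not show that it is silent.

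PBX3 (ENSG00000167081, chromosome 9, 125747345 to 125967377, plus strand), the PBX protein most tied to HOXA9-driven leukaemia, counted 680 and 698 CPM in AAVS1 KO. HOTSCRAMBL KO gave 883 and 928 CPM. Both lay above both controls. The log2 fold change was 0.39 (SE 0.0857, 95% interval 0.22 to 0.57, edgeR adjusted p 0.00281), 1.31 times the control, and 0.38 and 0.41 within the labelled pairs. This is the smallest of the 3 changes, and it was lost without TMM scaling (0.24, edgeR adjusted p 0.095), without the AAVS1 KO libraries labelled MOLM13 (0.0786) or OCI-AML4 (0.0787), and without the HOTSCRAMBL KO library labelled OCI-AML4 (0.0536). Without TMM the median of all genes was at −0.17, not −0.01, and 33.1% of calls with Cas9 were higher, against 51.5% with it.

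PKNOX1 (ENSG00000160199, chromosome 21, 42974510 to 43033931, plus strand), also called PREP1, competes with MEIS proteins for PBX. It counted 14.0 and 24.0 CPM in the AAVS1 KO libraries and 12.6 and 15.9 CPM after HOTSCRAMBL KO, so the groups overlapped. The log2 fold change of −0.41 had a 95% interval from −1.22 to 0.40 (edgeR adjusted p 0.627), which leaves room for a change as large as that of MEIS1. Its sign rested on the AAVS1 KO library labelled OCI-AML4, without which the value was 0.01. PBX4 (ENSG00000105717, chromosome 19, 19561707 to 19618693, minus strand), a PBX gene best known from testis, had only 6 and 31 counts in the Cas9 controls, against 44 and 4 with HOTSCRAMBL guides. The labelled pairs went opposite ways, and no difference was detectable at this depth (edgeR adjusted p 0.854).

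With the base editor, PBX3 and MEIS1 both rose and PBX2 did not pass the threshold. Those are 2 of 5 members, both higher, where 8.83% of tested genes passed, 4.56% higher and 4.27% lower, and 19.8% of those with a mean of at least 10 CPM.

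PBX3 counted 635 and 692 CPM in AAVS1 CBE and 1425 and 1430 CPM in HOTSCRAMBL CBE. Both edited libraries lay far above both controls and close to each other. The log2 fold change was 1.11 (SE 0.0844, 95% interval 0.93 to 1.28, edgeR adjusted p 5.33e-10), 2.15 times the control, and 1.17 and 1.05 within the labelled pairs. The call was kept in all 16 settings, with values from 0.97 to 1.15 and a highest adjusted p of 0.0104.

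MEIS1 counted 252 and 264 CPM in AAVS1 CBE. In HOTSCRAMBL CBE it counted 451 and 345 CPM. Both were above both controls, but the 2 edited libraries lay further apart than in any other group (398 ± 74.4 CPM, SD, n = 2). The log2 fold change was 0.63 (SE 0.12, 95% interval 0.38 to 0.87, edgeR adjusted p 7.79e-04), 1.54 times the control, with 0.84 in the pair labelled MOLM13 and 0.39 in that labelled OCI-AML4. Without the HOTSCRAMBL CBE library labelled MOLM13 it was 0.41 (edgeR adjusted p 0.198), without the AAVS1 CBE library labelled MOLM13 it was 0.53 (0.123), and a fit of the 4 libraries of the contrast alone gave 0.62 (0.0789).

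PBX2 counted 80.4 and 109 CPM in AAVS1 CBE and 92.4 and 83.1 CPM in HOTSCRAMBL CBE. The groups overlapped and the labelled pairs went opposite ways (0.20 and −0.39). Its log2 fold change was −0.08, with a 95% interval from −0.42 to 0.26 (edgeR adjusted p 0.843). Without the OCI-AML4 library of either group the sign turned, to 0.09 and 0.14. PKNOX1 counted 15.1 and 21.3 CPM, then 24.8 and 17.8 CPM, with a log2 fold change of 0.30 (−0.36 to 0.95, edgeR adjusted p 0.668) that turned to −0.28 without the HOTSCRAMBL CBE library labelled MOLM13. PBX4 had 22 and 22 counts against 4 and 16 (edgeR adjusted p 0.777).

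The difference between the editors was tested directly, as the Cas9 effect minus the base-editor effect. Of all genes 3.19% passed, 1.74% higher and 1.45% lower (7.09% in either direction of those with a mean of at least 10 CPM), and of the members MEIS1 and PBX3 passed, both with the lower value under Cas9. For MEIS1 the difference was −1.29 on the log2 scale (SE 0.181, 95% interval −1.67 to −0.92, edgeR adjusted p 5.06e-05). With HOTSCRAMBL guides it was below its AAVS1 control under Cas9 and above it under the base editor. PBX3 rose with both, and the difference of −0.71 (SE 0.12, −0.96 to −0.47, edgeR adjusted p 5.43e-04) is one of size. Both calls were kept in all 15 settings, from −1.49 to −1.08 for MEIS1 and from −0.75 to −0.67 for PBX3. PBX2 passed with Cas9 alone, but its difference of −0.71 (SE 0.252, −1.23 to −0.19) did not pass (edgeR adjusted p 0.15), and DESeq2 called it (−0.67, DESeq2 adjusted p 0.0402). The difference for PKNOX1 was −0.70 (−1.75 to 0.34, edgeR adjusted p 0.585).

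**Figure D2:**
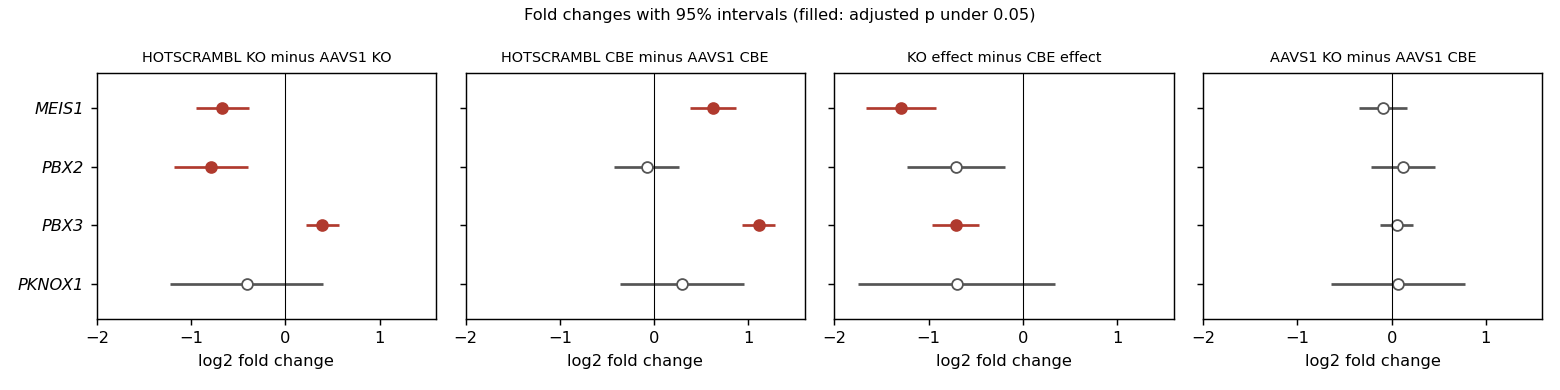
Log2 fold changes of 4 genes with 95% intervals from the edgeR fit, for the Cas9 effect, the base-editor effect, their difference and the difference between the AAVS1 controls. Filled points passed an adjusted p of 0.05. MEIS1 changes sign between the first 2 panels (−0.67 and 0.63), PBX3 is positive in both (0.39 and 1.11), and all control differences lie near 0. PBX4, with at most 44 counts in a library, is left out.

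The labelled cell lines did not separate the members. Averaged over groups, the libraries labelled MOLM13 differed from those labelled OCI-AML4 by 0.09 for MEIS1 (95% interval −0.09 to 0.27), −0.19 for PBX2 (−0.44 to 0.07), −0.06 for PBX3 (−0.18 to 0.06) and −0.23 for PKNOX1 (−0.74 to 0.28) on the log2 scale. edgeR called 0 of the 5 members there, with 0 at an unadjusted p under 0.05, and DESeq2 and limma-voom called 0. The HOTSCRAMBL effect averaged over editors differed between labels by 0.15 for MEIS1 (−0.27 to 0.56), 0.25 for PBX2 (−0.30 to 0.79), 0.04 for PBX3 (−0.21 to 0.29) and 0.82 for PKNOX1 (−0.19 to 1.83), and edgeR called 0 of 24057 genes (0%; 985 at an unadjusted p under 0.05, and DESeq2 called 70).

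Ratios within a library do not depend on its scaling. They compare transcripts in the pull-down, where recovery and abundance cannot be told apart. The exon lengths used include bases shared with other genes, where reads were not counted: 13.3% for MEIS1, 15.2% for PBX2 and 0% for PBX3. The size of the PBX3 ratios may therefore be too high in every library, which does not bear on their comparison between groups. Per kilobase, PBX3 exceeded MEIS1 6.07 and 6.68 times in the Cas9 controls and 5.61 and 5.86 times in the base-editor controls. It was 13.7 and 13.0 times with HOTSCRAMBL KO, and 7.06 and 9.24 times with HOTSCRAMBL CBE. All 4 HOTSCRAMBL libraries were above all 4 controls, and the Cas9 libraries were the highest. PBX3 to PBX2 went from between 5.67 and 7.03 in the 4 controls to 15.2 and 12.4 with Cas9 and 13.7 and 15.3 with the base editor. Those 2 edited groups overlapped in that ratio. MEIS1 to PBX2 overlapped among 3 groups, from 0.864 to 1.25 over the AAVS1 libraries against 1.11 and 0.959 in HOTSCRAMBL KO. It was 1.95 and 1.66 in HOTSCRAMBL CBE, above the other 6 libraries.

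**Figure D3:**
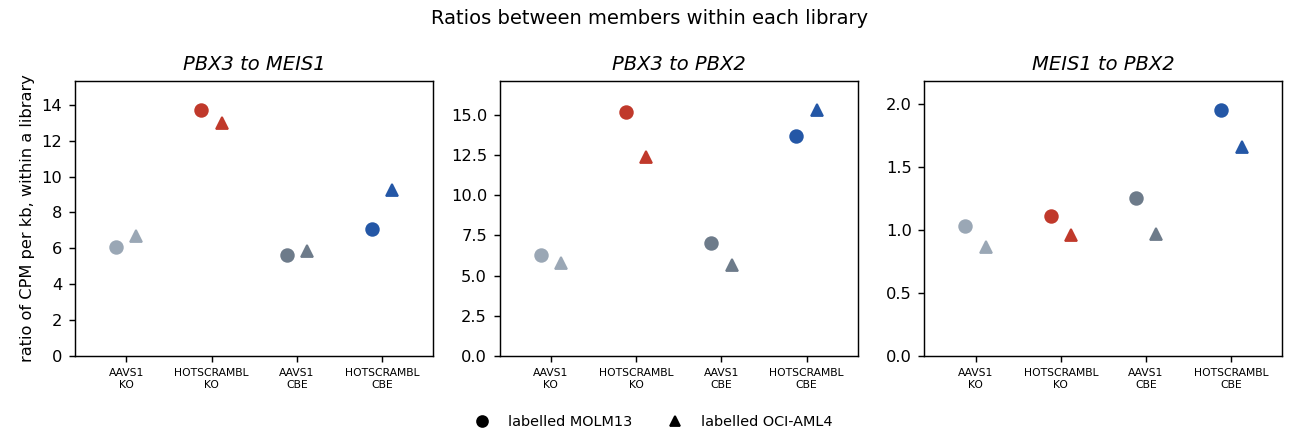
Ratios of CPM per kilobase between pairs of genes, computed within each library, on axes that start at 0. Circles are libraries labelled MOLM13 and triangles those labelled OCI-AML4. PBX3 to PBX2 is between 12.4 and 15.3 in all 4 HOTSCRAMBL libraries and at most 7.03 in the controls, whereas MEIS1 to PBX2 stands apart in HOTSCRAMBL CBE (1.95 and 1.66).

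As a share of the summed level of the 5 genes per kilobase, PBX3 took 73% to 74.7% in the AAVS1 libraries, 86.7% and 85.5% in HOTSCRAMBL KO and 81.6% and 84.6% in HOTSCRAMBL CBE. The share of MEIS1 was 11.1% to 13.3% in the controls, 6.32% and 6.6% with Cas9 and 11.6% and 9.16% with the base editor. The sum itself was 173 to 193 CPM per kb in the controls, 208 and 221 in HOTSCRAMBL KO, and 356 and 345 in HOTSCRAMBL CBE. Thus the Cas9 groups differed mostly in the makeup of the sum and the base-editor groups in its size as well.

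Genes next to the members were examined to see whether a change reached along the chromosome. Within 250 kb of MEIS1 lay 10 genes, 3 of them tested, and within 250 kb of PBX3 lay 6, 5 of them tested. In neither place did edgeR, DESeq2 or limma-voom call a neighbour in the Cas9 or base-editor comparison, and 0 had an unadjusted edgeR p under 0.05. Apart from MAPKAP1 (56.4 to 85.3 CPM) these genes were low, so the lack of calls cannot show whether a change reached them. Near MEIS1, LINC02934 was at most 4.92 CPM and LINC01798 at most 0.61 CPM, and the others tested near PBX3 were at most 4.43 CPM. MEIS1-AS2, on the opposite strand within MEIS1, had log2 fold changes of −0.80 (edgeR adjusted p 0.539) with Cas9 and −0.06 (0.966) with the base editor at 3.31 to 10.2 CPM. Counting ignored strand, so reads from MEIS1 itself cannot be told apart in the MEIS1-AS2 value. MEIS1-AS3 had 21 counts in all and was not tested, and PBX3-DT, 0.793 kb from PBX3, had −0.18 (0.959) and −2.28 (0.317). MAPKAP1, 40.1 kb from PBX3, had 0.06 (0.885) and 0.20 (0.583).

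Neighbours of the other 3 genes did include calls. Of 20 tested near PBX2, AGER fell with both editors (−1.06 and −0.81), and with the base editor RNF5 (1.69) and GPSM3 (0.74) rose while SKIC2 (−0.64) and TNXB (−2.23) fell. Near PBX4, where 20 were tested, GMIP (−0.74 and −0.97) and LPAR2 (−0.75 and −0.79) fell with both. MAU2 (−0.53) and SUGP1 (−0.65, edgeR adjusted p 0.0459) fell with Cas9, and ATP13A1 (−0.46) fell with the base editor. LINC00663 passed with Cas9 (edgeR adjusted p 0.0442) at 0.0784 and 0.16 CPM against 5.25 and 3.35 CPM. Of these 20, edgeR called 5 with Cas9, DESeq2 6 and limma-voom 3. Of 6 tested near PKNOX1, WDR4 fell with both (−0.97 and −0.61). In all, 7 of 54 tested neighbours (13%) passed with Cas9 and 9 of 54 (16.7%) with the base editor, against 8.76% and 8.83% of all tested genes and 18.8% and 19.8% of those with a mean of at least 10 CPM.

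Other TALE homeobox genes were mostly low. Of 11 listed, 6 were tested, and IRX1, IRX2, IRX4, IRX6 and MKX were at 0 in every library. IRX3, of the Iroquois branch, counted 27.9 and 49.3 CPM in AAVS1 CBE and 82.8 and 119 CPM in HOTSCRAMBL CBE and rose by 1.40 on the log2 scale (SE 0.196, edgeR adjusted p 1.41e-05). That is 1 of the 6 with the base editor (16.7%, against 8.83% of all tested genes and 19.8% of those with a mean of at least 10 CPM). With Cas9 edgeR called 0 of the 6 (2 at an unadjusted p under 0.05, DESeq2 1, limma-voom 0), and their median was −0.16, against −0.01 for all genes. TGIF1 and TGIF2, which encode TALE repressors, differed by −0.11 and −0.21 with Cas9 and −0.08 and 0.33 with the base editor, none past the threshold; both were looked up after the values were seen.

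Among HOX genes, the partners of these cofactors, transcripts came mainly from the HOXA cluster: of 19 listed, 12 were tested, and HOXB2 to HOXB6 and HOXB8 were at 0. HOXA9 itself counted 41.6 and 27.8 CPM in AAVS1 KO but 16.1 and 20.6 CPM in HOTSCRAMBL KO. Its log2 fold change of −0.91 did not pass (edgeR adjusted p 0.0773). With the base editor it was 0.16 (edgeR adjusted p 0.794). HOXA9 is named as the partner of the members, outside the rule for named genes. With Cas9, 2 of 12 passed in edgeR (16.7%). That compares with 8.76% of all tested genes and 18.8% of those with a mean of at least 10 CPM. DESeq2 called 5 and limma-voom 1. Those of edgeR were HOXA3 (−2.21, edgeR adjusted p 1.93e-04) and HOXA5 (−1.80, 0.0306), and the list's median was −1.38, with 2 of 12 above 0. The HOXA5 call was lost without either AAVS1 KO, either HOTSCRAMBL KO or either AAVS1 CBE library (edgeR adjusted p 0.0577 to 0.407), with limma-voom (0.0846) and in a fit of the 4 libraries alone (0.132). With the base editor the median was 0.46 and 1 of 12 passed in edgeR (8.33%). That compares with 8.83% of all tested genes and 19.8% of those with a mean of at least 10 CPM. DESeq2 called 1 and limma-voom 0. The edgeR call was HOXA11 (1.23, edgeR adjusted p 0.0484). It was lost when any 1 of the 8 libraries was left out (0.76 to 1.85 on the log2 scale). It was also lost in 6 other settings: DESeq2 size factors (0.0514), no TMM (0.0836), no replicate block (0.0639), limma-voom (0.0625), the 4 libraries alone (0.155) and the older quasi-likelihood method (0.194). Between the editors 1 of 12 passed in edgeR (8.33%). That compares with 3.19% of all tested genes and 7.09% of those with a mean of at least 10 CPM. DESeq2 called 3 and limma-voom 1. The edgeR call was HOXA3, which differed by −2.08 (edgeR adjusted p 0.0094). With 1 library left out the difference ran from −2.15 to −1.95. The call then held only when AAVS1 CBE replicate 2, labelled OCI-AML4, was the library left out. Genes of the HOXA cluster overlap transcripts on the other strand, and strand was not used in counting.

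Of 26 genes listed as targets of HOXA9 and MEIS1, 25 were tested, and ERG was at 0. With Cas9 6 rose and 6 fell (48%, against 8.76% of all tested genes and 18.8% of those with a mean of at least 10 CPM). With the base editor 6 rose and 0 fell (24%, against 8.83% and 19.8%), and between the editors 1 was higher and 6 lower (28%, against 3.19% and 7.09%). The medians were −0.01, 0.13 and −0.26, against −0.01, −0.02 and −0.01 for all genes. When each library was left out in turn, 3 to 5 rose and 3 to 6 fell with Cas9, and 2 to 7 rose with the base editor. The list was put together with earlier results of these data known, so its counts are a description.

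SYTL1, which encodes a vesicle-trafficking protein, fell with Cas9 from 404 and 371 CPM to 174 and 129 CPM (−1.36, edgeR adjusted p 1.95e-08), as did DACH1, a corepressor, from 223 and 264 to 108 and 97.4 CPM (−1.25, 5.59e-07). With the base editor neither passed (−0.26 and −0.24), and they differed between editors by −1.10 (edgeR adjusted p 2.76e-04) and −1.01 (0.00208). The latter call was lost without AAVS1 KO replicate 2 (0.103), HOTSCRAMBL KO replicate 2 (0.0708), AAVS1 CBE replicate 1 (0.0733) or HOTSCRAMBL CBE replicate 1 (0.083). MYC, the growth regulator, rose with both editors (0.86 and 0.90, edgeR adjusted p 7.00e-07 and 2.85e-07), as PBX3 did. CEBPA, the myeloid factor, rose by 1.00 and 0.61 (edgeR adjusted p 4.62e-06 and 0.00212). PIM1, a survival kinase, rose with the base editor from 288 and 232 to 377 and 398 CPM (0.57, edgeR adjusted p 0.00119), and JMJD1C, a demethylase-family coactivator, from 336 and 294 to 422 and 431 CPM (0.44, 0.00831). Of these base-editor calls, CEBPA was lost without AAVS1 CBE replicate 1 (0.0626) or 2 (0.0797) or HOTSCRAMBL CBE replicate 2 (0.102), PIM1 without AAVS1 CBE replicate 2 (0.148) or HOTSCRAMBL CBE replicate 2 (0.0697), and JMJD1C without any 1 of the 4 libraries of the contrast (0.0521 to 0.238). A fit of those 4 libraries alone ended all 3 (0.0673 for CEBPA, 0.0805 for PIM1 and 0.0953 for JMJD1C), and JMJD1C was also lost without TMM scaling (0.30, 0.095).

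**Figure D4:**
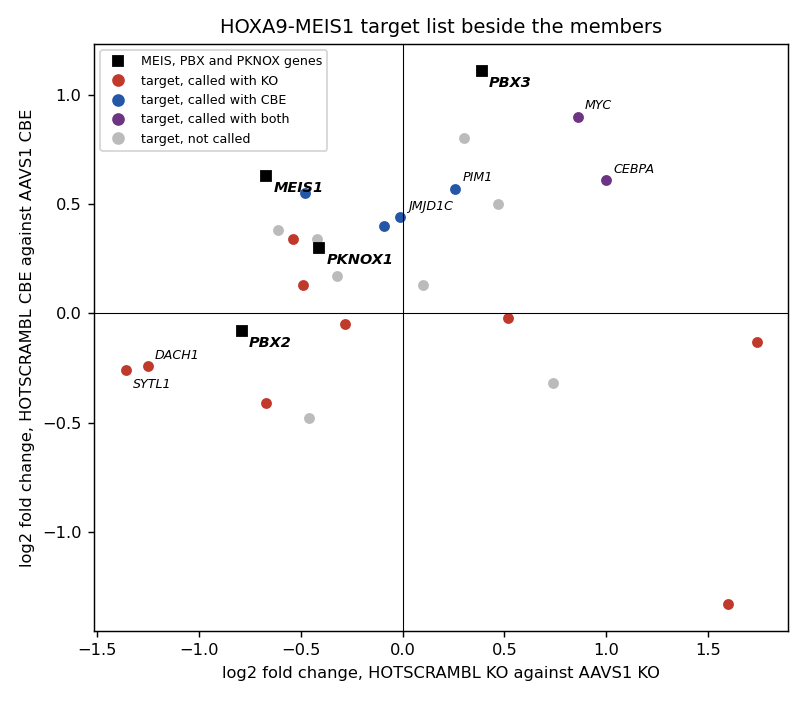
Log2 fold change with Cas9 (x) against that with the base editor (y) for 4 members (black squares) and the 23 of 25 tested HOXA9-MEIS1 targets with counts in every group (circles, coloured by the comparison that called them). MEIS1 lies at upper left (−0.67, 0.63) and PBX3 at upper right (0.39, 1.11), where MYC (0.86, 0.90) and CEBPA (1.00, 0.61) also lie.

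Of 12 listed regulators of MEIS1 or HOXA transcription, 1 passed with Cas9 (8.33%, against 8.76% of all tested genes) and 2 with the base editor (16.7%, against 8.83%). Of genes with a mean of at least 10 CPM, 18.8% and 19.8% passed. With Cas9 DESeq2 called 4 of them and limma-voom 1. DOT1L, the H3K79 methyltransferase, fell with both editors: from 414 and 394 CPM to 231 and 213 CPM with Cas9 (−0.86, edgeR adjusted p 2.21e-06) and from 445 and 405 to 298 and 288 CPM with the base editor (−0.54, 6.76e-04). A link between the levels of DOT1L and MEIS1 was not tested. The base-editor call of DOT1L was lost without AAVS1 CBE replicate 1 (−0.50) or HOTSCRAMBL CBE replicate 1 (−0.51). ELF1, an ETS factor, rose with the base editor (0.60, edgeR adjusted p 0.00453) and was lost without AAVS1 CBE replicate 2 (0.193), HOTSCRAMBL CBE replicate 1 (0.169) or 2 (0.061). The fit of the 4 libraries alone also ended it (0.065). Among 11 binding proteins and coregulators, edgeR called 1 with each editor (9.09%). That compares with 8.76% and 8.83% of all tested genes and 18.8% and 19.8% of those with a mean of at least 10 CPM. DESeq2 called 3 with each editor, and limma-voom 1 with Cas9 and 3 with the base editor. In edgeR, PBXIP1, which binds PBX proteins and blocks their DNA contact, fell with Cas9 (−0.87, edgeR adjusted p 0.0316). The histone acetyltransferase CREBBP rose with the base editor (0.45, 0.0138). PBXIP1 was lost when any 1 of the 8 libraries was left out (0.0564 to 0.272), and CREBBP without AAVS1 CBE replicate 1 (0.129) or 2 (0.212) or HOTSCRAMBL CBE replicate 2 (0.269). PBXIP1 also failed with limma-voom (0.0521) and in the 4-library fit (0.153), and CREBBP without TMM (0.31, 0.108), without the replicate block (0.0541) and in the 4-library fit (0.109).

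Genes whose levels followed a member most closely were found over the 8 libraries among 9644 genes with a mean of at least 10 CPM, by Pearson correlation of log2(CPM + 1). MEIS1 was followed by MTMR12 (r = 0.980), BRCA2 (0.978), EZR (0.978), SENP6 (0.977) and DIAPH1 (0.976). PBX3 was followed by MTHFD2 (0.997), SLC2A3 (0.995), CTSG (0.993), B2M (0.991) and H2AC16 (0.988). The lists share no gene. Among the members, r was 0.49 for MEIS1 with PBX3, 0.64 for MEIS1 with PBX2, −0.20 for PBX2 with PBX3 and 0.71 for PBX2 with PKNOX1. The 8 points are 4 groups of 2 libraries and the genes share libraries, so these are descriptions of a pattern over groups, with no test.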

How the data were processed

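RNA from 8 ChIRP libraries (4 groups of 2, groups from the sample titles) was analysed as deposited by the authors: whole-number counts per gene, not normalised. Per the file headers the authors counted with featureCounts 2.0.6 on the Ensembl 112 annotation of GRCh38, with both reads of a pair counted separately, no strand option, and reads over several genes or positions not counted. The aligner's settings and any duplicate removal are not given in the sources used here. Between 71.8% and 74.9% of values from 1 to 20 were even in each library. Of 63140 identifiers, 62541 (99.05%) received a symbol, 2 broken records were rejoined, and every count column belonged to a sample of this series.

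Genes were tested with edgeR 4.0.16 (R 4.3.3) by the quasi-likelihood F-test with robust estimation and the newer dispersion method, after TMM scaling and filterByExpr (minimum count 10, 24057 genes kept). The model held group and labelled line, with 3 residual degrees of freedom. P-values were adjusted over all tested genes by Benjamini-Hochberg, with a threshold of 0.05. Pairing comes from the cell line, which the labels give with each replicate number. Its deviations correlated at 0.0203 to 0.053 between groups (0.0445 to 0.128 over genes above the median level). By the labels the 2 libraries of a group came from different lines, and so from separate cultures, but this could not be checked. Tests and intervals rest on the spread between these libraries, which may in part be technical. They also borrow from the spread of all tested genes, with a median of 22.2 prior degrees of freedom beside the 3 residual ones. DESeq2 1.42.0, limma-voom (limma 3.58.1), other scalings, no filter, no replicate block, the 4 libraries alone and leaving out each library were alternatives, and edgeR's older quasi-likelihood method was added after seeing the data.

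Levels are CPM after TMM scaling, per kilobase of merged exon length where genes are compared. That length includes exon bases shared with other genes, where reads were not counted. The members and gene lists were chosen with earlier results of these data known. Named from each list were up to 4 called genes per editor and up to 2 for the difference, by smallest p. Neighbours were genes within 250 kb, named where they overlap a member or were called, and PBX3-DT and MAPKAP1 were named after their values were seen. Promoter sequences are from RefSeq (GRCh38.p14), in which all 5 members matched.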

Additional observations from a re-analysis of the deposited data

Results flagged for a closer look

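The effects of Cas9 and of the base editor differed for 2 of the 5 members, MEIS1 and PBX3, and for the listed genes HOXA3, SYTL1 and DACH1. The test was the edgeR test of the difference of effects over all 8 libraries (2 per group). MEIS1 differed by −1.29 on the log2 scale, having gone down with Cas9 and up with the base editor in both labelled pairs. PBX3 differed by −0.71, having gone up with both editors and further with the base editor. HOXA3 differed by −2.08, SYTL1 by −1.10 and DACH1 by −1.01, with the lower value under Cas9 in each. The calls of MEIS1, PBX3 and SYTL1 were kept when any 1 library was left out, that of HOXA3 was lost in 7 of 8 such fits (edgeR adjusted p up to 0.116) and that of DACH1 in 4 of 8 (up to 0.103). No group held the 4 libraries that a check for single outlying samples needs.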

How the results depend on the processing

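The main counts of calls were 2108 with Cas9, 2124 with the base editor, 767 for their difference, 0 between controls, 119 between labelled lines and 0 for the line difference of the effect. DESeq2 gave 4208, 3438, 2243, 33, 769 and 70. limma-voom gave 2 between controls and 250 between lines, and the older quasi-likelihood method gave 193 between lines. The 4 libraries of a contrast alone gave 780 with Cas9 and 677 with the base editor, with 1 member called in the latter. Without the replicate block the counts were 1736, 1641, 503 and 0 for the first 4, and no call of a member changed. Leaving out each library in turn gave 701 to 1679 calls with Cas9 (0 to 3 members), 579 to 1935 with the base editor (1 to 2 members), 234 to 370 for the difference and 26 to 58 between lines.

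Signs turned when 1 library was left out for PKNOX1 with Cas9 (−0.71 to 0.01) and with the base editor (−0.28 to 0.75), for PBX2 with the base editor (−0.33 to 0.14), between controls for MEIS1 (−0.19 to 0.01), PBX2 (−0.04 to 0.30) and PKNOX1 (−0.33 to 0.39), and between lines for MEIS1 (−0.03 to 0.15). PBX4, at 4 to 44 counts, ran over all settings from −2.53 to 2.57 with Cas9, −2.78 to 0.00 with the base editor, −1.46 to 3.72 for the difference, −1.84 to 1.17 between controls and −1.32 to 0.63 between lines. None of these had been called. The cause was not tested. Among single genes other than PBX4 under the other settings, 287 values kept their direction and side of the threshold, 21 lost the call and 1 gained it. With 1 library left out, 248 kept both, 62 lost the call and 10 turned sign. With 2 libraries per group, the call of PBX3 with the base editor and those of MEIS1 and PBX3 for the difference were kept in every setting run. The Cas9 calls of MEIS1, PBX2 and PBX3 were not, nor was the base-editor call of MEIS1 (lost without replicate 1 of either group, with edgeR adjusted p 0.123 and 0.198, and in the 4-library fit, 0.0789). Intervals draw on the spread of these libraries and on that of all tested genes. No input was analysed, so recovery and abundance cannot be told apart.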
